A study of Mus musculus with 8 samples.

Results

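The genes Tnc, Postn, Sparc, Thbs1, Thbs2, Ctgf, Cyr61, Fn1 and Fbn1 encode matricellular and fibrillar glycoproteins of the extracellular matrix. They were chosen by gene symbol as 9 of the 23478 genes in a table of raw read counts from 8 mouse RNA-seq libraries. All 9 passed the filter on low counts that left 17069 genes for testing, Thbs2 and Fbn1 only through the libraries of disseminated cells. The design text asks how the expression of disseminated breast cancer cells differs from that of tumours, and how a CD4 Th1 response bears on it. Each of 4 groups had 2 libraries. The DCC control group held disseminated cancer cells, taken from bone marrow in a mouse model of spontaneously metastasising breast cancer, without added cytokine, and the DCC IFN-gamma group held such cells treated with interferon-gamma, the signature cytokine of Th1 cells. The early lesion group held cells taken from an early mammary tumour lesion, untreated, with neuT in the sample title; neuT is an activated rat Erbb2 oncogene. TUBO, also untreated, is a mammary carcinoma line derived from a mouse carrying neuT. The labels give the genotype WT for all 4 groups and describe standard culture. The sources used here do not give the interferon dose, treatment time, mouse strain or mouse age. The labels call the replicates biological but do not say whether they came from separate mice or cultures, so the p-values measure only the spread between these samples.

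Matricellular proteins are secreted into the matrix and tune how cells attach, spread and respond to growth factors rather than bearing load themselves. Tenascin-C (Tnc) and periostin (Postn) are deposited at sites of remodelling and have been studied as parts of the niches in which disseminated breast cancer cells grow, thrombospondins bind CD47 and CD36 and act on latent TGF-beta, and CCN1 (Cyr61) and CCN2 (Ctgf) are classical transcriptional targets of the YAP and TAZ coactivators. Fibronectin (Fn1) and fibrillin-1 (Fbn1) form the fibrils on which many of the others are laid down, and bone marrow stromal cells and osteoblasts are known producers of most of these proteins.

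The sequences just upstream of 3 of the genes are shown because these genes had the largest differences in either direction between treated and untreated disseminated cells: Cyr61 was higher after interferon-gamma, and Tnc and Postn were lower. Each window is the 250 bases before an annotated transcription start, from RefSeq on GRCm38.p6, printed 5′ to 3′ on the gene's strand. Windows were found for 6 of the 9 genes (Tnc, Postn, Sparc, Thbs2, Fbn1 and Cyr61), 8 windows in all. Tnc and Postn had 2 windows each, of which 1 is shown, and the windows not shown held none of the motifs searched. The Cyr61 window lies at chr3:145649986-145650235 (minus strand), the Tnc window at chr4:64047016-64047265 (minus strand) and the Postn window at chr3:54360857-54361106 (plus strand), and capitals mark the motif found.
Cyr61: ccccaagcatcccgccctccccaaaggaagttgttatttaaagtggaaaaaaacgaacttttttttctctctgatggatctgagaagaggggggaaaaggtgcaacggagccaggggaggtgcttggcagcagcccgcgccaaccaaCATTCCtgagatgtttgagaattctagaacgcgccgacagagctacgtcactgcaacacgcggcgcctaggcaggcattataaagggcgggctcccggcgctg
Tnc: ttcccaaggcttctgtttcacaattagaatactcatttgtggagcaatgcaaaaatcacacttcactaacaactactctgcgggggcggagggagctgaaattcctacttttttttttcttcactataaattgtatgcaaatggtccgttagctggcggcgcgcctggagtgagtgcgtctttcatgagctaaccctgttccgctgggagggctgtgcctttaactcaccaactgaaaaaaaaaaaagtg
Postn: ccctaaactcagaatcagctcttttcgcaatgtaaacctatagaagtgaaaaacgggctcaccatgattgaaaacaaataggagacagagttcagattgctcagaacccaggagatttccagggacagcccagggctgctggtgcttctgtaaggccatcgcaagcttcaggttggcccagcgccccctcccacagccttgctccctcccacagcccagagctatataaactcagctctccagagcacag
The capitals in Cyr61 are the TEAD motif GGAATG on the opposite strand, 103 to 98 bases before the start. GGAATG was searched on both strands and stood in 1 of the 8 windows, against 12.6% of 32851 windows of the same length genome-wide. An interferon-stimulated response element motif, on either strand, was found only in the Fbn1 window (2.98% of all windows). The gamma-activated site letters TTCNNNGAA (7.02% of all windows) and the CArG box (1.47%) had no match in the 8 windows. A match is a run of letters and no measurement of binding.

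Gene counts ranged from 15432210 to 30168475 per library. Reads falling on no annotated feature made up 49.2% of all reads in DCC control replicate 1 and 44.1% in early lesion replicate 2, against 18.3% to 31% in the other 6 libraries, so these 2 libraries stood apart. The marker lists did not match the cancer label of the disseminated cells. The 14 epithelial markers summed to 5.03 to 8.46 CPM (gene counts scaled to library size) in DCC control and to 0.367 to 0.501 CPM in DCC IFN-gamma, where Epcam and 8 others had 0 counts in both libraries, against 3754 to 3938 CPM in early lesion and 6533 to 7036 CPM in TUBO. The 13 fibroblast and stromal markers summed to 8500 to 9671 CPM in DCC control, 1193 to 1901 CPM in DCC IFN-gamma, 15.0 to 22.6 CPM in early lesion and 8.73 to 15.0 CPM in TUBO. In the same order of groups, 9 osteoblast markers summed to 6351 to 7071 CPM, 589 to 870 CPM, 42.7 to 46.2 CPM and 140 to 148 CPM. Most of the fibroblast sum in DCC control was Col1a1 (3900 and 4274 CPM) and Col3a1 (2969 and 3629 CPM). In DCC IFN-gamma, Col1a1 had 379 and 555 CPM and Col3a1 92.0 and 216 CPM, so the fall in that sum rests mainly on these collagen genes. The 15 macrophage and monocyte markers in the table summed to 160 to 165 CPM in DCC control and 1708 to 2338 CPM in DCC IFN-gamma, against 78.8 to 111 CPM in the other 2 groups, where Cd14 alone made up 89.3% to 96.1% of the sum. Leaving out Cd14, this sum was 149 to 152 CPM in DCC control, 1642 to 2295 CPM in DCC IFN-gamma, 6.77 to 11.8 CPM in early lesion and 4.35 to 4.90 CPM in TUBO. In such bulk samples fewer cells of a type and less RNA per cell cannot be told apart.

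**Figure D1:**
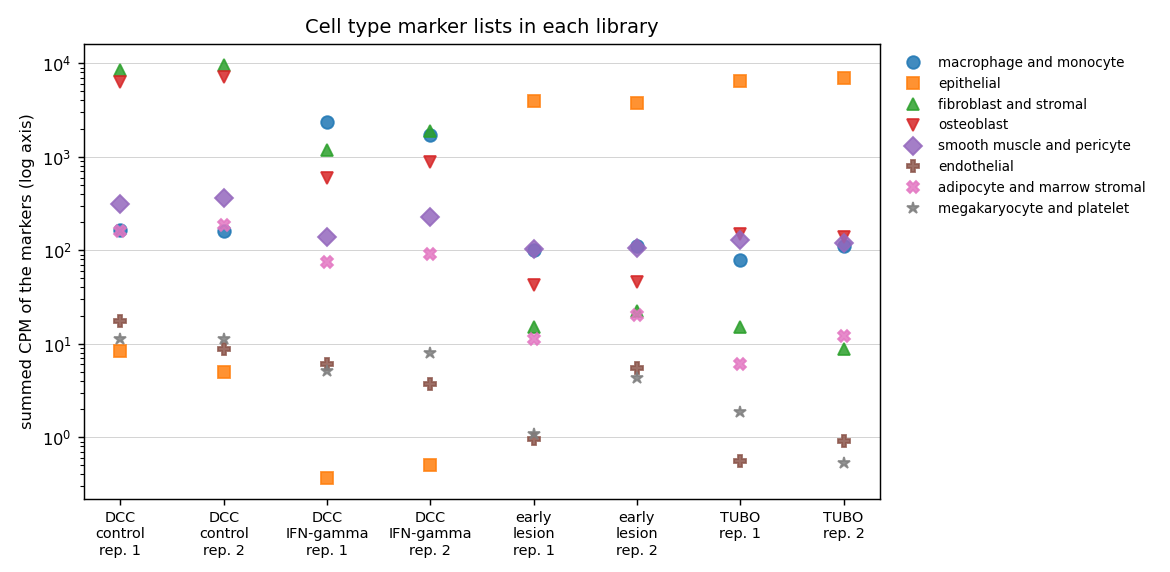
Summed CPM (log axis) of 8 cell type marker lists in each library; each symbol is 1 list and each column 1 library. The epithelial sum lies under 10 CPM in the 4 DCC libraries and at 3754 CPM or more in the early lesion and TUBO libraries, and the macrophage sum is about an order of magnitude higher in the treated than in the untreated DCC libraries.

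The 9 genes together took 4.93% and 5.02% of all gene counts in the DCC control libraries and 1.58% and 3.28% after interferon-gamma, but only 0.234% and 0.227% in early lesion cells and 0.112% and 0.0966% in TUBO cells. In the DCC libraries most of this was fibronectin. Fn1 alone held 4.07% and 4.09% of gene counts in the DCC control libraries, where it ranked 1 among all genes by count, and 1.31% and 2.76% in the treated libraries, where it ranked 2. In the early lesion and TUBO libraries its share was 0.0321% to 0.094%.

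**Figure D2:**
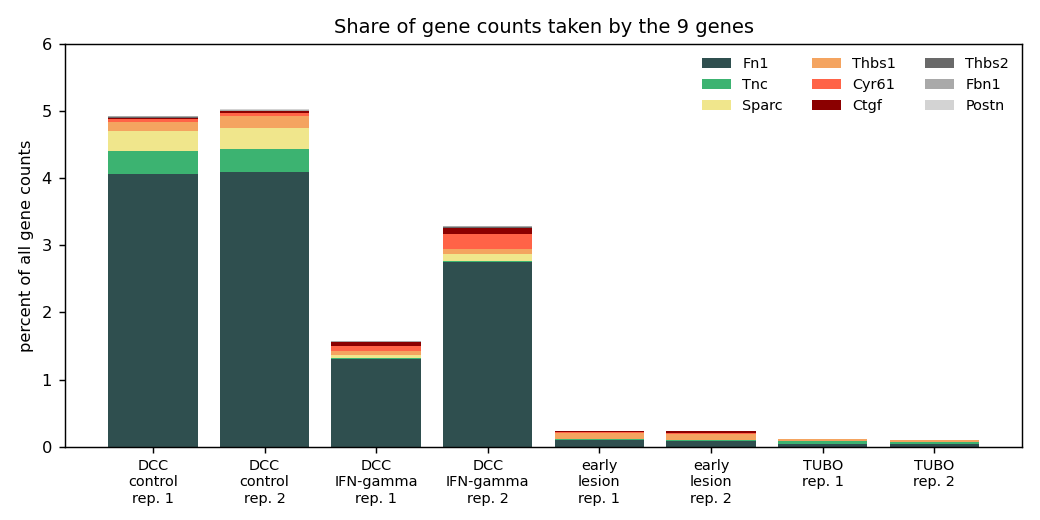
Percent of all gene counts taken by each of the 9 genes, stacked, with 1 bar per library. Fn1 makes up most of the bar in all 4 DCC libraries, and the whole bar falls from about 5% in DCC control to under 0.25% in early lesion and TUBO.

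A scale per exon length (RPKM, CPM divided by the exon length in kilobases) was used to order the genes by level. The shares and ranks by count above and the 100 CPM level below are not corrected for exon length. In DCC control the order was Fn1 (3361 ± 130 RPKM, SD, n = 2), Sparc (776 ± 87.0), Tnc (425 ± 9.81), Thbs1 (250 ± 54.1), Cyr61 (182 ± 23.8), Ctgf (82.1 ± 19.7), Thbs2 (17.0 ± 4.22), Fbn1 (11.3 ± 0.867) and Postn (2.51 ± 0.613). No neighbours in that order overlapped. After interferon-gamma the order was Fn1, Cyr61, Ctgf, Sparc, Thbs1, Tnc, Fbn1, Thbs2, Postn, and the ranges of Fn1 and Cyr61, of Ctgf and Sparc, of Sparc and Thbs1, and of Fbn1 and Thbs2 overlapped. Tnc stood at place 3 in DCC control and at place 6 in the treated cells. In early lesion Thbs1 led with 135 ± 8.72 RPKM, followed by Fn1 (72.2 ± 6.98) and Cyr61 (65.0 ± 4.2), which overlapped. TUBO was the group in which Tnc led, at 51.1 ± 2.84 RPKM, ahead of Thbs1 (41.4 ± 2.33) and Fn1 (32.1 ± 5.16). Of the 9 genes, 7 reached 100 CPM in both libraries of DCC control and of DCC IFN-gamma, 5 in early lesion and 3 in TUBO.

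Within the disseminated cells, interferon-gamma went with lower tenascin-C, periostin, SPARC and thrombospondin-1 transcripts and with higher transcripts of both CCN genes, while fibronectin, thrombospondin-2 and fibrillin-1 did not pass the test. Of the 9 genes, 4 were called lower and 2 higher (edgeR quasi-likelihood test, Benjamini-Hochberg adjusted p under 0.05 over all genes tested). Over all 17069 genes, 8.83% were called lower and 12.6% higher. The median log2 fold change of the 9 genes was -0.76, beside -0.20 for all genes tested.

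Tnc encodes tenascin-C, a hexameric glycoprotein that weakens cell adhesion to fibronectin. It stood at 3247 and 3354 CPM in the untreated libraries and at 107 and 176 CPM in the treated libraries. The groups did not overlap, and both treated libraries were far under both controls. Tnc was 23.3-fold lower after interferon-gamma (log2 fold change -4.54 ± 0.26 (SE), adjusted p = 2.95e-06). The gene lies at chr4:63959785-64047015 on the minus strand of GRCm38.

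Postn encodes periostin, which binds collagen and is typical of periosteum and activated fibroblasts. Its level was low throughout: 18.1 and 25.6 CPM in the controls and 0.513 and 0.292 CPM after treatment, the last pair resting on 14 and 7 reads. Again the groups did not overlap. The difference was 53.2-fold (log2 fold change -5.73 ± 0.49, adjusted p = 3.54e-05).

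Sparc encodes a collagen-binding matricellular protein abundant in bone (osteonectin). The controls had 2706 and 3172 CPM and the treated libraries 488 and 1161 CPM. Every control value was above every treated value, although the treated replicates themselves differed 2.38-fold. Sparc was 3.56-fold lower (log2 fold change -1.83 ± 0.36, adjusted p = 0.0084).

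Thbs1 encodes thrombospondin-1, an inhibitor of angiogenesis and activator of latent TGF-beta. It measured 1289 and 1753 CPM in the controls and 561 and 904 CPM after treatment, without overlap. The difference was 2.08-fold (log2 fold change -1.05 ± 0.24, adjusted p = 0.0118). Leaving out DCC control replicate 2 ended the calls of Sparc and Thbs1 (adjusted p = 0.0608 and 0.0698).

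Its paralog Thbs2, also an inhibitor of angiogenesis, had 98.3 and 140 CPM in the controls and 42.9 and 114 CPM in the treated libraries. These ranges overlapped, and treated replicate 1 was the low library. Thbs2 did not pass the test (log2 fold change -0.60 ± 0.72, adjusted p = 0.577), but it was called lower with no filter on low counts (adjusted p = 0.027). Within a library the ratio of Thbs1 to Thbs2 per length was 15.1 and 14.4 in the controls and 15.1 and 9.12 in the treated cells.

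Ctgf and Cyr61 encode CCN proteins that bind integrins and heparan sulphate. Ctgf rose from 195 and 275 CPM to 584 and 1054 CPM, with no overlap between groups. This was a 3.48-fold increase (log2 fold change 1.80 ± 0.30, adjusted p = 0.00377). Of its exon bases, 23.2% are shared with Gm15270 on the opposite strand, and since no source used here gives the strand setting, reads of these genes cannot be told apart there.

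Cyr61 measured 401 and 333 CPM in the controls against 808 and 2720 CPM after treatment. Treated replicate 2 was the high library, 3.37-fold above replicate 1, and both were above the controls. Cyr61 was 4.81-fold higher (log2 fold change 2.27 ± 0.53, adjusted p = 0.0277). That call was the least stable of the 6: it was lost in 7 of 17 alternative analyses, among them the omission of DCC control replicate 1 (adjusted p = 0.139), DCC control replicate 2 (0.234), early lesion replicate 1 (0.0536), TUBO replicate 1 (0.065) or TUBO replicate 2 (0.067).

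Fn1, whose product is the fibril scaffold bound by integrin alpha5 beta1, had 38195 and 40348 CPM in the controls and 13467 and 32845 CPM after treatment. Both treated values lay under the controls, but 2.44-fold apart. The difference missed the threshold (log2 fold change -0.76 ± 0.38, adjusted p = 0.185). Without treated replicate 2 Fn1 was called lower (-1.5, adjusted p = 7.14e-05), as it was when gene count totals alone set the scale (-1.01, adjusted p = 0.0403) and with no filter on low counts (adjusted p = 0.0118). Within a library the ratio of Fn1 to Tnc per length was 7.83 and 8.0 in the controls and 83.8 and 124 in the treated cells, so the 2 genes changed unequally. The ratio of Fn1 to Sparc was 4.58 and 4.12 in the controls and 8.94 and 9.17 in the treated cells.

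Fbn1, the main structural protein of microfibrils, was close to level: 144 and 129 CPM in the controls and 136 and 143 CPM in the treated libraries. Its ranges overlapped and its replicates differed by 1.05-fold after treatment. The log2 fold change was 0.03 ± 0.57 (adjusted p = 0.977), and its sign differed between alternative analyses, from -0.17 to 0.11. Fbn1 shares 20.1% of its exon bases with Gm9913 on the opposite strand.

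The spread within the treated pair touched most of these values. Replicate 2 was above replicate 1 for 8 of the 9 genes, Postn being the other. The DCC control pair leaned the same way, with 7 of the 9 genes higher in replicate 2. Beside these differences, 12 of 15 macrophage markers tested were called higher in the treated cells (12.6% of all genes higher, 8.83% lower). Of the epithelial markers, low in both DCC groups, 6 of 13 tested were called lower, and of the smooth muscle and pericyte markers 3 of 8. Of 7 adipocyte and marrow stromal markers tested, 1 was called higher and 1 lower. No endothelial or megakaryocyte marker was called. Of the fibroblast markers, 4 of 12 tested were called lower and 1 higher, and of the osteoblast markers 4 of 9 were called lower. Col1a1, counted in both the fibroblast and the osteoblast list, made up 60.5% to 64.4% of the osteoblast sum in the 4 DCC libraries. Of the 13 fibroblast markers, 12 were above the floor of 3 counts in both treated libraries. The part of cell composition in the differences above was not tested.

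**Figure D3:**
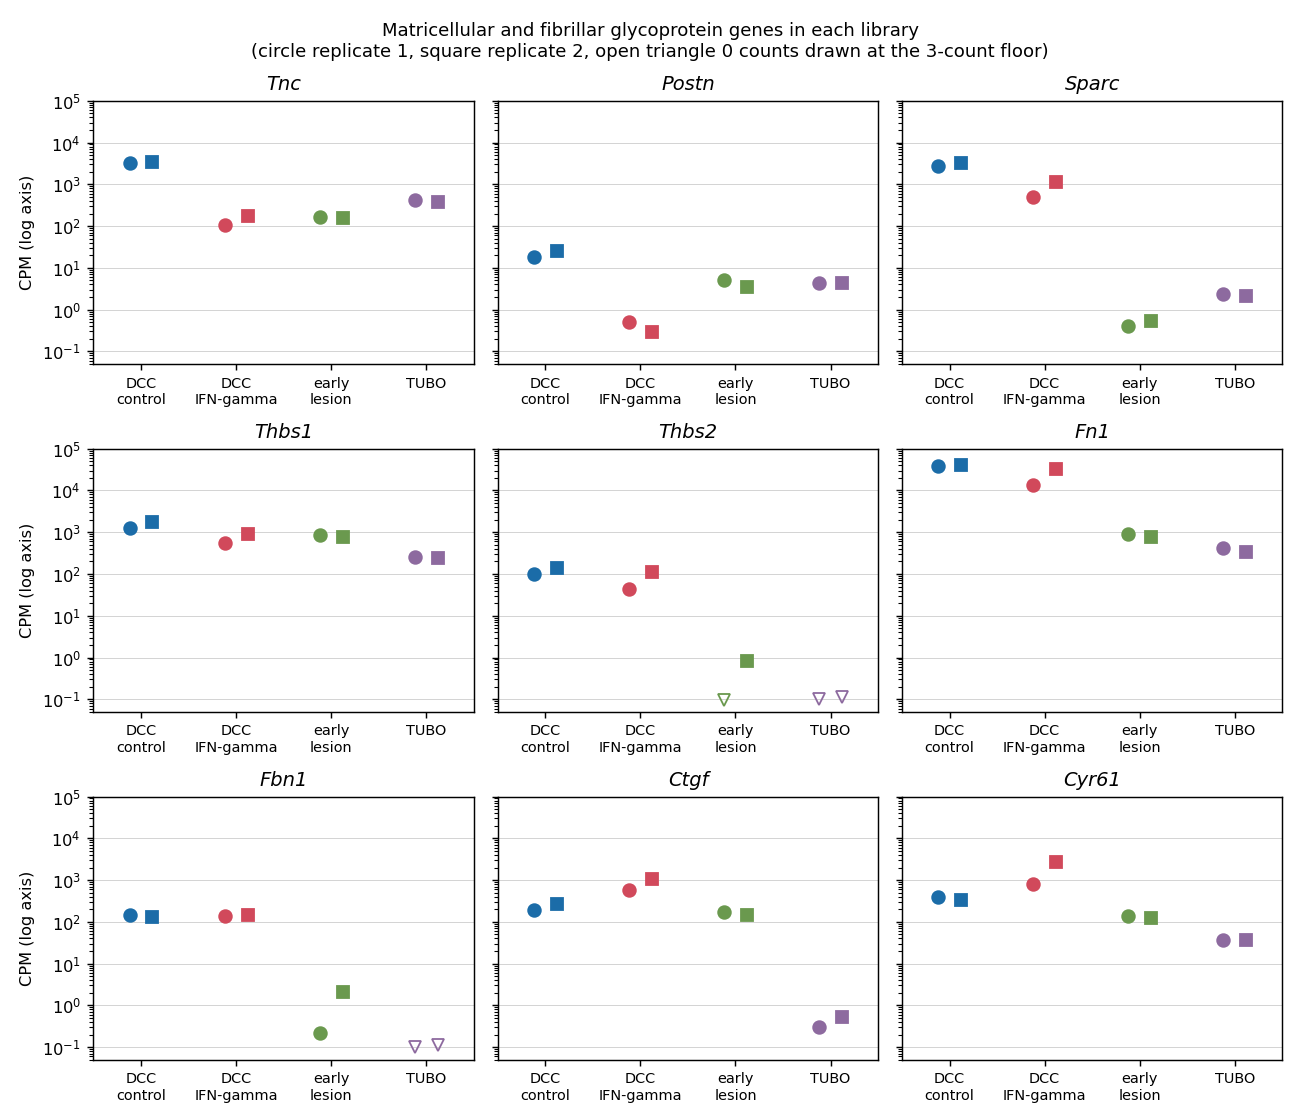
CPM (log axis) of each gene in each library; circles are replicate 1, squares replicate 2, and open triangles mark 0 counts, drawn at the floor of 3 counts. Tnc and Postn are far lower in both treated DCC libraries than in both controls, Fbn1 is level between them, and Sparc, Thbs2 and Fbn1 are near or at 0 in early lesion and TUBO.

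Related genes from lists were counted in the same comparison. Of 19 other matricellular proteins, 4 were called lower and 1 higher (8.83% and 12.6% of all genes), with a median log2 fold change of -2.00 (all genes -0.20). That median includes genes with 0 counts in the treated libraries and low counts in the controls, so it is no measure of a fall across the list. They ran from Spock3 (0.352 CPM in the controls, fitted log2 fold change -6.17) to Thbs4 (1.22 CPM, -7.95). Tnn, which encodes tenascin-N (also called tenascin-W), fell from 11.7 ± 0.322 to 0.446 ± 0.372 CPM (SD, n = 2; log2 fold change -4.72 ± 1.38, adjusted p = 0.0432). Comp, cartilage oligomeric matrix protein and a thrombospondin relative, fell from 416 ± 38.4 to 34.6 ± 19.5 CPM (-3.59 ± 0.56, adjusted p = 0.00593). The CCN family member Wisp1 (CCN4) fell from 76.8 ± 5.31 to 10.3 ± 1.21 CPM (-2.90 ± 0.51, adjusted p = 0.0067), so that among CCN genes Wisp1 and the pair Ctgf and Cyr61 were called in opposite directions. Smoc2, a SPARC relative, was higher (log2 fold change 2.11 ± 0.47, adjusted p = 0.0233). Over the 17 alternatives the number called lower in this list ranged from 0 to 7 and the number called higher from 0 to 4. The number lower was 1 or 0 on omitting the first or the second of the DCC control libraries, and 2 on omitting replicate 1 of the treated cells. The number higher was 0 with DESeq2 and on omitting any 1 library of DCC control, DCC IFN-gamma or TUBO, and 4 on omitting either early lesion library.

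Of 19 microfibril and elastic fibre genes, 2 were called lower and 1 higher, and the other 16 did not pass the test (median -1.02, all genes -0.20). That median includes genes with low counts, so it is no measure of a fall across the list. Among them were Mfap4 (2.06 CPM in the controls, 0 after treatment, fitted log2 fold change -8.70) and Eln (1.61 and 0.104 CPM, -3.9). Over all genes tested 8.83% were lower and 12.6% higher. Fbn2, the fibrillin typical of development, fell from 23.6 ± 2.23 to 1.74 ± 0.959 CPM (log2 fold change -3.76 ± 0.57, adjusted p = 0.00162), whereas Fbn1 was not called. Fbln5, an elastic fibre assembly protein, fell from 133 ± 2.77 to 34.5 ± 13.7 CPM (-1.95 ± 0.24, adjusted p = 0.000384). Ltbp2, a fibrillin-binding protein of the latent TGF-beta binding protein family, was higher (1.06 ± 0.18, adjusted p = 0.00252). The number of genes called lower in this list ranged from 2 to 7 over the 17 alternative analyses and was 6 without DCC IFN-gamma replicate 2. The number called higher was 2 without DCC IFN-gamma replicate 1.

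Among 16 receptors for these proteins, 2 were called higher and 3 lower (12.6% and 8.83% of all genes), with a median log2 fold change of 0.37 (all genes -0.20). The number higher was 1 on omitting DCC control replicate 1, 5 on omitting early lesion replicate 1 and 4 on omitting early lesion replicate 2. The heparan sulphate proteoglycan Sdc4, which binds fibronectin, tenascin-C and CCN proteins, was higher (log2 fold change 1.36 ± 0.21, adjusted p = 0.00116), as was the endocytic thrombospondin receptor Lrp1 (0.79 ± 0.19, adjusted p = 0.0143). Ddr2, listed here although it is a fibrillar collagen receptor, was lower (-0.85 ± 0.24, adjusted p = 0.0313). The others called lower, Itgb6 and Itga8, were at low levels in both groups. Itgb6 had 1.56 CPM in the controls and 0.147 CPM after treatment, and Itga8 had 1.41 and 0.198 CPM. Cd36, a thrombospondin receptor also present on macrophages, named after its values were seen, had 2.02 ± 0.107 CPM in the controls and 39.8 ± 8.45 CPM after treatment and did not pass the test (adjusted p = 0.0657).

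YAP/TAZ-TEAD factors and targets other than the 2 CCN genes had 8 of 12 members called higher and 2 lower (12.6% and 8.83% of all genes). The median log2 fold change was 0.67 (all genes -0.20). Higher were Ankrd1 (2.76 ± 0.54, adjusted p = 0.00545), a target gene in muscle and stromal cells, the receptor tyrosine kinase gene Axl (2.30 ± 0.50, adjusted p = 0.0215) and Tead4 (1.15 ± 0.26, adjusted p = 0.00967). Lower were the factor genes Tead2 (-1.04 ± 0.21, adjusted p = 0.00592) and Tead3 (-0.69 ± 0.22, adjusted p = 0.0473). The transcripts of the coactivators Yap1 (0.80 ± 0.17, adjusted p = 0.00725) and Wwtr1 (TAZ, 0.56 ± 0.15, adjusted p = 0.0242), named after their values were seen, were among the 8. That count of 8 was 5 when gene count totals alone set the scale, 3 on omitting either DCC control library and 4 on omitting both libraries with many reads outside genes.

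Of 12 TGF-beta ligands, receptors, SMADs and targets, 3 were called higher and 0 lower (edgeR, with 0 lower also at an unadjusted p under 0.05 and with DESeq2). The shares of all genes were 12.6% higher and 8.83% lower, and in a list of 12 a count of 0 lower is near that share. The median log2 fold change was 0.25 (all genes -0.20). Among the 3 called were Smad7 (log2 fold change 1.78 ± 0.20, adjusted p = 0.000174) and Skil (1.34 ± 0.17, adjusted p = 0.000432), target genes that encode inhibitors of SMAD signalling.

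**Figure D4:**
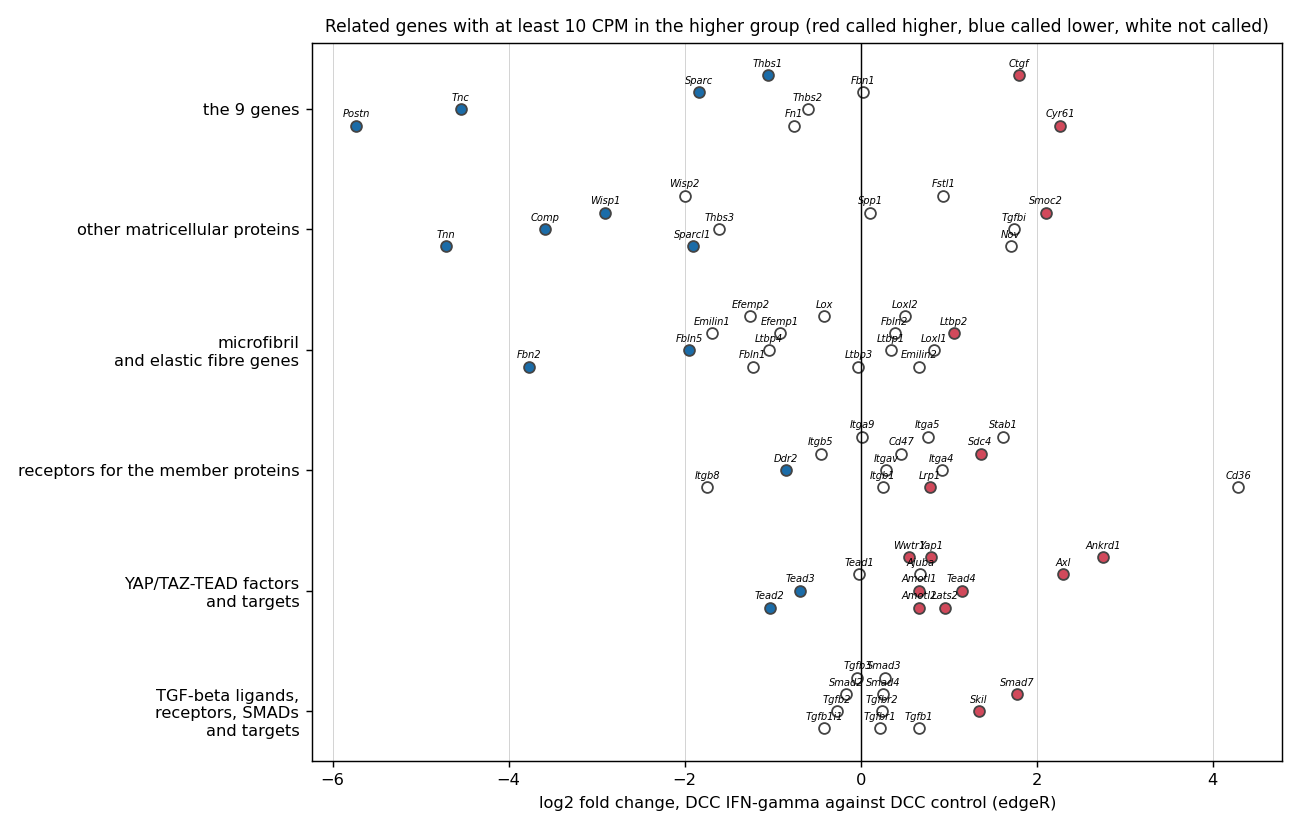
Log2 fold changes of the 9 genes and of 5 lists of related genes, DCC IFN-gamma against DCC control, for list genes with at least 10 CPM in the higher group (1 gene is not drawn); red points were called higher, blue lower and white not called. The 9 genes spread from -5.73 (Postn) to 2.27 (Cyr61), and the called YAP/TAZ-TEAD and TGF-beta genes lie mostly to the right of 0.

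Untreated disseminated cells stood above early lesion cells in 7 of the 9 genes (19.1% of all genes tested were called higher), and the other 2, Ctgf and Cyr61, did not pass the test. The median log2 fold change was 4.37, beside 0.23 for all genes. Sparc differed most, with 0.413 and 0.535 CPM in early lesion against 2706 and 3172 CPM (log2 fold change 12.61 ± 0.60, adjusted p = 1.13e-06). Thbs2 had 0 and 0.803 CPM in early lesion and Fbn1 had 0.222 and 2.14 CPM, with the higher value of each in replicate 2, the library with more reads outside genes. Their log2 fold changes were 8.40 ± 1.11 (adjusted p = 0.00253) and 6.97 ± 0.79 (adjusted p = 0.00139), and omitting DCC control replicate 2 ended both calls (adjusted p = 0.0982 and 0.0664). The sizes turned on early lesion: omitting its replicate 1 gave 7.21 for Thbs2 and 5.99 for Fbn1, while omitting its replicate 2 gave 9.23 for Fbn1 and left Thbs2 at 0 counts in the remaining library, where a fitted fold change is no bound.

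Fibronectin and tenascin-C transcripts were present in early lesion cells, at lower levels. Fn1 had 902 and 786 CPM there (46.5-fold lower, log2 fold change 5.54 ± 0.46, adjusted p = 5.93e-06), and Tnc had 166 and 153 CPM (20.7-fold lower, 4.37 ± 0.26, adjusted p = 5.8e-07). Postn had 5.24 and 3.48 CPM (2.32 ± 0.40, adjusted p = 0.000955). The closest of the called genes was Thbs1, at 856 and 781 CPM in early lesion, all under the DCC controls (0.89 ± 0.24, adjusted p = 0.0138). Its call ended on omitting DCC control replicate 2 (adjusted p = 0.104), early lesion replicate 2 (0.0816), or both libraries with many reads outside genes (0.0903).

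Ctgf had 176 and 149 CPM in early lesion, just under the control values (log2 fold change 0.53 ± 0.29, adjusted p = 0.212). Cyr61 had 137 and 125 CPM (1.48 ± 0.51, adjusted p = 0.067). Neither overlapped the controls, and both were called higher in DCC control with no filter on low counts (adjusted p = 0.0316 and 2.08e-11) and without DCC IFN-gamma replicate 1 (adjusted p = 0.0314 and 2.62e-07). Cyr61 was also called with upper quartile factors (0.0497), with the stricter filter (0.0337), without DCC IFN-gamma replicate 2 (2.95e-07), with DESeq2 (0.0173) and in a fit of these 2 groups alone (7.38e-05).

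Against TUBO, all 9 genes were called higher in DCC control (22.1% of all genes), with a median log2 fold change of 6.71 (all genes 0.37). This comparison shares its DCC control libraries with the preceding one, so the values are given side by side only. Fbn1 and Thbs2 had 0 counts in both TUBO libraries, and against a floor of 3 counts per library DCC control was at least 1250-fold and at least 1090-fold higher. Both passed the filter on low counts only through the DCC libraries. Their direction against TUBO and early lesion was thus largely set by that filter. The adjusted p was 0.000662 for Fbn1 and 0.00168 for Thbs2, the latter rising to 0.0727 without DCC control replicate 2. Ctgf was nearly silent in TUBO, at 0.310 and 0.534 CPM (log2 fold change 9.12 ± 0.46, adjusted p = 1.17e-06).

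Sparc measured 2.38 and 2.14 CPM in TUBO (log2 fold change 10.34 ± 0.53, adjusted p = 1.64e-06). Fn1 was at 418 and 332 CPM (6.71 ± 0.48, adjusted p = 2.02e-06) and Thbs1 at 261 and 241 CPM (2.60 ± 0.26, adjusted p = 1.93e-05). These values put TUBO under every DCC library for all 3 genes. Tnc had 413 and 382 CPM (3.05 ± 0.24, adjusted p = 4.26e-06), Postn 4.38 and 4.31 CPM (2.33 ± 0.40, adjusted p = 0.000877), and Cyr61 36.5 and 37.1 CPM (3.32 ± 0.55, adjusted p = 0.00347).

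Beside these differences from early lesion and TUBO, 10 and 12 of the 12 fibroblast and stromal markers tested were called higher in DCC control (edgeR). Of the 13 epithelial markers tested, 12 and 11 were called lower. Macrophage markers were called higher in 11 and 13 of 15 and lower in 1 in each comparison, and osteoblast markers higher in 7 of 9 in each. The shares of all genes were 19.1% and 22.1% higher, and 18.7% and 19.9% lower. The fibroblast markers Lum, Thy1, Fap, Dpt and Mfap5 had 0 counts in both TUBO libraries. The origin of the cells and the levels of the 9 genes cannot be told apart by this design.

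Of 19 microfibril and elastic fibre genes, 14 were called higher in DCC control than in early lesion and 16 higher than in TUBO (19.1% and 22.1% of all genes). In each, 0 were called lower (edgeR), beside 18.7% and 19.9% of all genes, and 0 were lower at an unadjusted p under 0.05 or with DESeq2. The crosslinking enzyme gene Lox had 866 ± 146 CPM in DCC control and 0.583 ± 0.690 CPM in early lesion (log2 fold change 10.68 ± 0.94, adjusted p = 0.000193), and Emilin1, an elastic fibre glycoprotein gene, 182 ± 4.06 and 0.134 ± 0.189 CPM (10.59 ± 1.14, adjusted p = 0.000504). Fbn2 and Fbln1, a fibulin gene, had 0 counts in both TUBO libraries, with DCC control at least 217-fold and at least 720-fold higher. Of the 19 other matricellular proteins, 10 were higher and 1 lower in each comparison, beside the same shares of all genes. The 1 lower against TUBO was Sparcl1, a SPARC relative, at 35.9 ± 11.6 CPM in DCC control and 719 ± 29.0 CPM in TUBO (-4.32 ± 0.57, adjusted p = 0.00119), the opposite direction to Sparc. The YAP/TAZ-TEAD list of 12 genes had 4 higher and 3 lower than in early lesion (median 0.32, all genes 0.23). Against TUBO it had 6 higher and 3 lower (median 0.53, all genes 0.37). The TGF-beta list of 12 genes had 5 higher and 3 lower than in early lesion (median 0.27) and 4 in each direction against TUBO (median -0.13). The shares of all genes were 19.1% higher and 18.7% lower against early lesion, and 22.1% and 19.9% against TUBO. Against early lesion both list medians were near that of all genes.

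Receptors were divided. Of 16, 7 were higher and 4 lower in DCC control than in early lesion (19.1% of all genes higher and 18.7% lower). Against TUBO, 6 were higher and 5 lower (22.1% and 19.9% of all genes), and 3 were lower on omitting TUBO replicate 1. The fibronectin receptor subunit Itga5 had 159 ± 6.18 CPM in DCC control, 0.548 ± 0.550 CPM in early lesion and 0.126 ± 0.0167 CPM in TUBO (log2 fold changes 8.31 ± 0.61, adjusted p = 6.26e-05, and 10.24 ± 0.71, adjusted p = 4.21e-05). Itga8, the alpha8 integrin subunit, which binds fibronectin and tenascin-C, ran the other way, with 1.41 ± 0.358 CPM in DCC control, 546 ± 47.9 CPM in early lesion and 226 ± 10.5 CPM in TUBO (-8.56 ± 0.24, adjusted p = 1.1e-08, and -7.29 ± 0.23, adjusted p = 1.45e-08). Itgb3, the beta3 subunit of vitronectin and fibronectin receptors, was likewise lower in DCC control (-6.18 ± 1.0, adjusted p = 0.00325, and -5.19 ± 0.97, adjusted p = 0.00577).

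TUBO and early lesion cells differed from each other in both directions: 2 of the 9 genes were called higher in TUBO and 4 lower (11.4% and 12.7% of all genes tested), with a median log2 fold change of -1.70 (all genes -0.27). Higher in TUBO were Tnc (2.49-fold, log2 fold change 1.32 ± 0.23, adjusted p = 0.0023) and Sparc, at a few CPM (2.27 ± 0.56, adjusted p = 0.0199). Lower were Ctgf (385-fold, -8.59 ± 0.46, adjusted p = 8.24e-06), Thbs1 (3.26-fold, -1.70 ± 0.25, adjusted p = 0.000781), Fn1 (2.25-fold, -1.17 ± 0.38, adjusted p = 0.049) and Cyr61 (3.57-fold, -1.84 ± 0.52, adjusted p = 0.0495). Ctgf and Cyr61 thus changed unequally: their per-length ratio was 0.908 and 0.840 in the early lesion libraries and 0.00601 and 0.0102 in TUBO.

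The Fn1 and Cyr61 calls between TUBO and early lesion sat at the threshold. Fn1 lost its call in 9 of 17 alternatives and Cyr61 in 8, including the omission of any 1 of the 4 TUBO and early lesion libraries (adjusted p from 0.0805 to 0.27 for Fn1 and from 0.117 to 0.242 for Cyr61), and of DCC control replicate 1 (0.0703 and 0.0941) or replicate 2 (0.053 and 0.149). Sparc lost its call in 6, among them the omission of early lesion replicate 1 (0.0935) or 2 (0.0578) and of TUBO replicate 1 (0.0688) or 2 (0.0691). Tnc lost its call only on omitting both libraries with many reads outside genes (0.0581). Postn did not pass the test (-0.01 ± 0.39, adjusted p = 0.992), nor did Thbs2 (adjusted p = 0.291) or Fbn1 (adjusted p = 0.0752). Thbs2 was called lower in TUBO with no filter on low counts (5.64e-06). That call rests on 18 reads in early lesion replicate 2. Early lesion replicate 1 and both TUBO libraries had 0 reads of Thbs2, so the groups overlapped. Fbn1 was called lower in TUBO in 6 of 16 alternatives, among them the omission of early lesion replicate 1 (2.5e-05) or replicate 2 (0.00928).

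Compared with early lesion, interferon-treated disseminated cells had 6 of the 9 genes called higher and 1 lower (22.7% and 19.2% of all genes). Postn was the lower gene, at 10.7-fold (log2 fold change -3.41 ± 0.46, adjusted p = 0.000173). Tnc (-0.17 ± 0.23, adjusted p = 0.557) and Thbs1 (-0.16 ± 0.24, adjusted p = 0.612) overlapped the early lesion values and were not called, with signs that differed between alternatives. Without DCC IFN-gamma replicate 2, both were called lower (adjusted p = 0.0121 and 0.0322). The others were higher, from Ctgf (2.33 ± 0.31, adjusted p = 0.000353) to Sparc (10.77 ± 0.57, adjusted p = 1.9e-06). Fbn1 ranged from 6.03 without early lesion replicate 1 to 9.26 without early lesion replicate 2. Thbs2 lost its call without DCC control replicate 2 (0.0771) or DCC IFN-gamma replicate 2 (0.0606).

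Compared with TUBO, treated cells had 7 genes called higher and 2 lower (24.4% and 19.6% of all genes). The lower ones were Tnc (2.81-fold, log2 fold change -1.49 ± 0.23, adjusted p = 0.000436) and Postn (10.6-fold, -3.40 ± 0.46, adjusted p = 0.000175). Among the higher ones Ctgf stood at 10.92 ± 0.48 (adjusted p = 4.81e-07), and Fbn1 and Thbs2 were at least 1280-fold and at least 722-fold higher against the TUBO floor. Omitting DCC control replicate 2 ended the Thbs2 call (adjusted p = 0.0606). These comparisons share libraries with those above. In all, Tnc and Postn were the genes that were called higher than TUBO in untreated cells and lower than TUBO in treated cells.

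**Figure D5:**
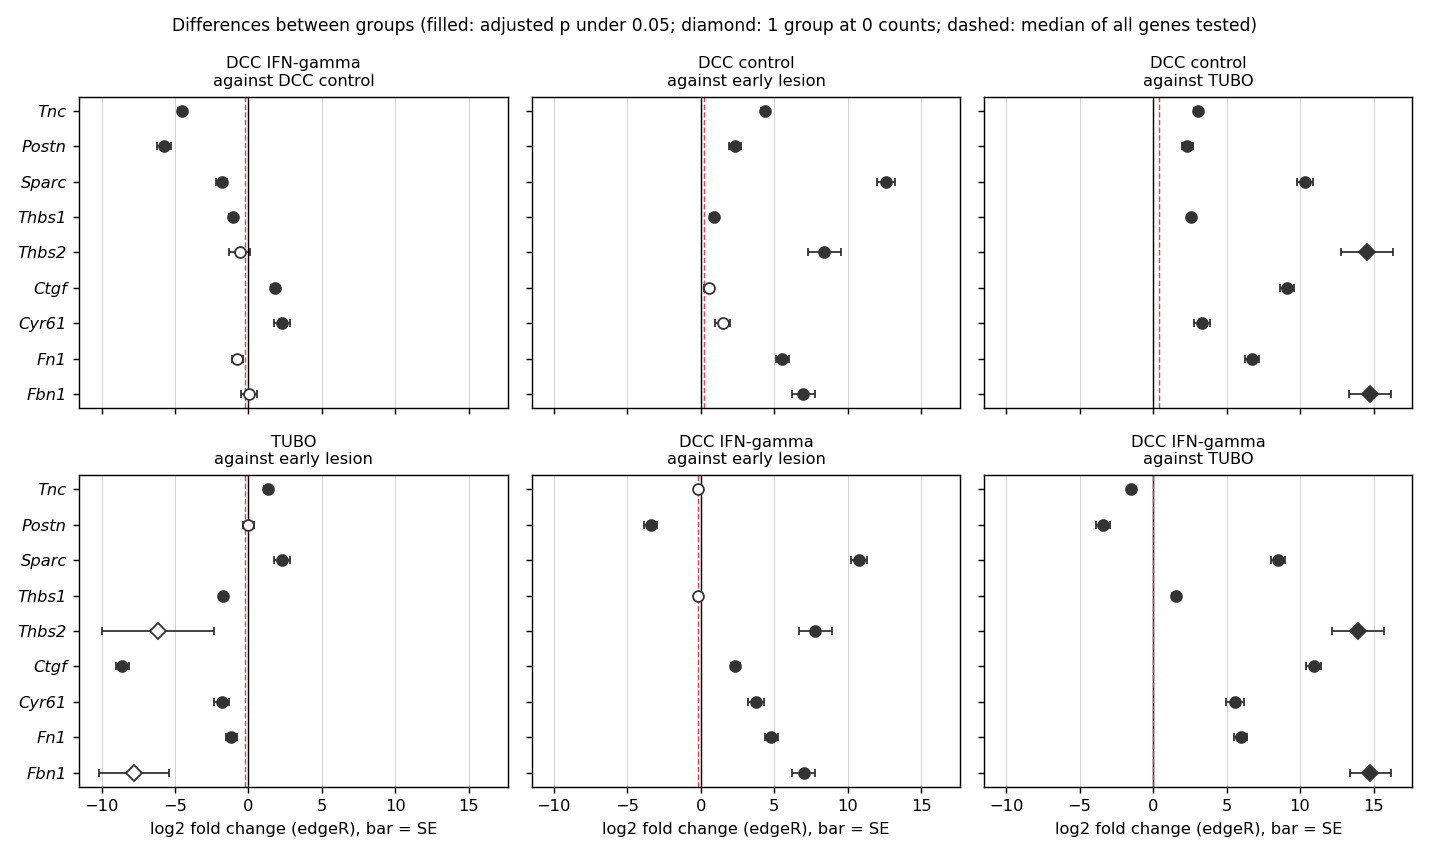
Log2 fold changes (edgeR, bars are SE) of the 9 genes in all 6 comparisons, the first-named group minus the second; filled symbols passed an adjusted p of 0.05, diamonds mark genes with 0 counts in 1 group, whose fitted fold change is no bound, and the dashed line is the median of all genes tested. All 9 symbols lie right of 0 for DCC control against TUBO, while the treated comparison runs from -5.73 (Postn) to 2.27 (Cyr61).

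Over the 8 libraries the genes did not vary as a block. Of their 36 pairwise Pearson correlations of log2 CPM, 6 were above 0.9 and 7 below 0, from -0.471 (Postn and Cyr61) to 0.987 (Thbs2 and Fbn1). These are descriptions over 8 libraries in 4 groups, whose points share group and depth. Among 10544 other genes, Thbs2 was most like Srpx2 (r = 0.9992) and Fbn1 most like Ptprm (r = 0.9994). Sparc was most like Cblb (r = 0.999), then Mmp13 (0.9971) and Nr2f2 (0.9961). The collagenase gene Mmp13 had 919 and 1224 CPM in DCC control, 217 and 687 CPM after treatment and at most 1.14 CPM elsewhere. Tnc was most like Wwp2 (0.9914), Postn most like Tmtc2 (0.9738), Thbs1 most like Palld (0.9866) and Fn1 most like Katnal1 (0.9965). Ctgf was most like Bhlhb9 (0.9938), followed by Anxa7 (0.9927) and Igfbp3 (0.9926), and Cyr61 most like Ext1 (0.9892), followed by Sfr1 (0.988) and Mgp (0.9862).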

How the data were processed

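The deposited table gives raw read counts per gene symbol. The submitters' processing notes name TopHat, HTSeq 0.6.1 and mm10, and the labels' protocols name RNeasy extraction and the Nugen Ovation kit for mouse RNA-seq. Annotation, strand setting and filters are not given in the sources used here. Left out were the 5 closing lines, which name no gene and held 35.2% to 63.7% of a library's reads. The floor of 3 counts equals 0.0953 to 0.183 CPM and covers counting error only.

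CPM used TMM library sizes. Group differences came from edgeR 4.0.16 (R 4.3.3, robust quasi-likelihood): all 8 libraries entered a single fit of 4 means, leaving 4 residual degrees of freedom. The filterByExpr filter used a minimum count of 10. P-values of the 6 comparisons were Benjamini-Hochberg adjusted over 17069 genes, and errors are log2 fold changes over the root of F. The common biological coefficient of variation was 0.416. With 2 libraries against 2 an exact permutation test cannot give a p under 0.333. Coordinates and exon lengths come from GENCODE M21 (GRCm38), where Ctgf and Cyr61 are Ccn2 and Ccn1, and promoters from RefSeq.

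The 9 genes, the lists and the markers were chosen with earlier results of these data known. Named genes are the 9, the called list genes with the largest changes (up to 3 in a list's leading direction, up to 2 opposite, at least 10 CPM in the higher group; not all are given), and the genes most correlated with each of the 9 (log2 CPM, prior count 2), leaving out predicted names. The values of 1 called list gene are not reported here. Alternatives were RLE size factors, upper quartile factors, gene count totals alone, no filter, a filter of 50 counts in 2 libraries, a replicate block, DESeq2 1.42.0, a fit of the 2 groups compared, and omission of each library or of both libraries with many reads outside genes.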

Additional observations from a re-analysis of the deposited data

How the results depend on the processing

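The number of the 9 genes called was 6 for DCC IFN-gamma against DCC control (3 to 7 with 1 library left out, lowest without DCC control replicate 2), 7 for DCC control against early lesion (4 to 9, lowest without DCC control replicate 2), 9 for DCC control against TUBO (8 to 9), 6 for TUBO against early lesion (3 to 6, lowest without TUBO replicate 1 or TUBO replicate 2), 7 for DCC IFN-gamma against early lesion (6 to 8) and 9 for DCC IFN-gamma against TUBO (8 to 9). With both libraries rich in reads outside genes omitted, TUBO against early lesion had 3. The other member counts were within 1.5 times. Over 916 single-gene values under an alternative, 42 lost and 22 gained a call, and no called value changed sign. In DCC IFN-gamma against DCC control, Tnc, Postn and Ctgf kept their calls in all 17 alternatives. The share of all genes called ranged from 10.5% to 30.2% there (21.4% as reported) and from 12.3% to 43.5% for TUBO against early lesion (24.1%). Upper quartile factors and gene count totals alone moved the median of all genes in DCC IFN-gamma against DCC control from -0.204 to -0.404 and -0.405. In that comparison the list counts ranged over the alternatives from 0 to 4 higher and 0 to 7 lower (other matricellular proteins), 0 to 2 and 2 to 7 (microfibril genes), 1 to 6 and 1 to 5 (receptors), 3 to 9 and 0 to 2 (YAP/TAZ-TEAD) and 2 to 4 and 0 to 1 (TGF-beta). With a replicate block the 6 counts, in the order above, were 5, 7, 9, 4, 7 and 9, and Cyr61 (adjusted p = 0.078) lost its edgeR call after interferon-gamma, as did Fn1 (0.0541) and Cyr61 (0.101) for TUBO against early lesion. The labels do not pair the replicates (correlations of replicate differences between groups -0.432 to 0.096). In the fit of TUBO and early lesion alone, Thbs2 and Fbn1 did not pass the filter. The causes of these shifts were not tested. Under 3 counts, levels cannot be told from 0 at this depth, and 2 libraries per group limit every error.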
